A study of Mus musculus with 69 samples.

Results

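The erythroid genes described here are 5 genes of the red cell programme: Klf1, Epor, Tfrc, Hbb-bt and Hbb-bs. They were chosen by name, and every peak within 50 kb of their gene bodies was taken from all 18 deposited peak lists. Hbb-bt and Hbb-bs lie side by side on chromosome 7, so they were treated as 1 beta-globin locus and each shared peak was counted once. The 5 genes, of 21887 protein-coding genes in the annotation, form 4 loci, which held 886 of the 1506511 peaks in the series. Peaks that overlapped or touched across lists were merged into 79 regions, of 166866 in the series.

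Red cells arise from haematopoietic stem cells (HSCs) through progenitor cells (HPCs) that progressively commit to the erythroid fate. KLF1 is a zinc finger transcription factor that acts together with the GATA factors to switch on the late genes of the lineage. The erythropoietin receptor, encoded by Epor, carries the survival signal of the hormone erythropoietin, the transferrin receptor, encoded by Tfrc, brings in the iron that haem needs, and Hbb-bt and Hbb-bs encode adult beta-globin. H3K4me1 marks enhancers, including those not yet in use, whereas H3K27ac marks active enhancers and promoters. A locus that carries H3K4me1 before its gene is in use is commonly called primed.

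The study profiled both marks by ChIPmentation, a chromatin immunoprecipitation in which the Tn5 transposase adds the sequencing adapters, in sorted mouse HPCs and HSCs. At 8 weeks of age, H3K4me1 was profiled without treatment in HPCs and in HSCs of Kmt2c f/f; Vav-Cre mice (knockout), of Kmt2c f/+; Vav-Cre mice (heterozygous) and of wild-type mice, with 3 libraries in each of these 6 groups. At 8 to 10 weeks, H3K27ac was profiled in HPCs of knockout and wild-type mice after 0.5 µg of IL-1 per day for 3 days or after PBS, with 4 libraries in each of these 4 groups. At 16 weeks, HSCs of knockout and wild-type mice were profiled after 3 doses of 150 mg/kg 5-fluorouracil (5FU), 3 weeks apart, or after PBS on the same schedule. Those HSC groups had 3 libraries each for H3K27ac, and for H3K4me1 they had 4 (knockout, 5FU), 6 (wild type, 5FU), 3 (knockout, PBS) and 4 (wild type, PBS). Kmt2c encodes MLL3, which places H3K4me1, and Vav-Cre acts throughout the blood lineages. The labels do not give the sort gates of the HPCs and HSCs.

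Each group had 1 list, pooled over its libraries, so no value below has a replicate error and no test between conditions was possible. Sequencing depth is unknown, and a mark in more cells cannot be told apart from more of the mark in each cell. The lists held between 37002 and 134509 peaks. The wild-type 5FU H3K4me1 list stood apart: it drew on 6 libraries with 2 title prefixes and held 132050 peaks, against 76274 to 87410 in the other 3 H3K4me1 lists at 16 weeks. Comparisons therefore used the relative log2 ratio, which is the log2 ratio of covered bases, after adding 1000 bases to both, minus the median of that ratio. The median was taken over genes that 1 list or both covered by 1000 bases or more. The median gene itself shifted most where the wild-type 5FU list entered, by -1.20 for knockout over wild type after 5FU and by 1.02 for 5FU over PBS in wild-type cells (log2). A locus or gene is called higher or lower when it stood at least 1.5-fold from that median gene. As a check of the sorted cells, 6 of 8 stem cell markers were called lower in wild-type HPCs than in wild-type HSCs by H3K4me1 and none higher. Of the other markers, 4 of 8 lymphoid and 2 of 8 granulocyte and monocyte ones were called higher and none lower. Of 8 megakaryocyte markers, 1 was called lower. Among all genes, 9.84% were called higher and 9.15% lower in that comparison. The summed covered bases of the stem cell markers were 249645 in HPCs and 407660 in HSCs, and the part of such differences in the results below was not tested.

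The promoters of the 5 genes are printed first, because the lists with a peak over them differ between the 5 genes. Each is the 250 bases before the annotated start (RefSeq, GRCm38.p6), 5′ to 3′ on the strand of the gene. Capitals mark matches on either strand to a GATA motif (AGATAA, also spelled as AGATAG, further as TGATAA and finally as TGATAG) or to the KLF1 motif CCNCNCCC, with overlapping matches joined. Klf1 lies on the plus strand, with its promoter at chr8:84901732-84901981. Epor lies on the minus strand, with its promoter at chr9:21963577-21963826. Tfrc lies on the plus strand, with the promoter of its first start at chr16:32608646-32608895. Hbb-bt and Hbb-bs lie on the minus strand, with promoters at chr7:103813924-103814173 and chr7:103827929-103828178.
Klf1: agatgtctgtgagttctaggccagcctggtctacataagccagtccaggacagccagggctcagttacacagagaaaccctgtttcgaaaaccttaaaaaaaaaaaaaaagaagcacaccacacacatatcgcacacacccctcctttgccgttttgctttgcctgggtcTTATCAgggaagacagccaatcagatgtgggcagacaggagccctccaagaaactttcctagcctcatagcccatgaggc
Epor: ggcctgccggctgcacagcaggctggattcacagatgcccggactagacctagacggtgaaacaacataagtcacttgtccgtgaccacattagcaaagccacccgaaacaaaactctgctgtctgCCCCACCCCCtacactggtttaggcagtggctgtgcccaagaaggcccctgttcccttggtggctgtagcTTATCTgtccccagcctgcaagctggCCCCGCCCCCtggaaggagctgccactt
Tfrc: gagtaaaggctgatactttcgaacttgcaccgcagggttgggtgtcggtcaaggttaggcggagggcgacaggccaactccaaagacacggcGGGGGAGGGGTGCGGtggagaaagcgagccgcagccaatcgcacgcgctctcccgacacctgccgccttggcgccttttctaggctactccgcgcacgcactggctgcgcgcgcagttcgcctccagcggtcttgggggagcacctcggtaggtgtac
Hbb-bt: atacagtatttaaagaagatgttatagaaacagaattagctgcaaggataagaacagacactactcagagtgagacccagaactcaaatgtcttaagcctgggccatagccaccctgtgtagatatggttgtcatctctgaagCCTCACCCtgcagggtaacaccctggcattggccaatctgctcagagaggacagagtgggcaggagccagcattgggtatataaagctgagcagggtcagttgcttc
Hbb-bs: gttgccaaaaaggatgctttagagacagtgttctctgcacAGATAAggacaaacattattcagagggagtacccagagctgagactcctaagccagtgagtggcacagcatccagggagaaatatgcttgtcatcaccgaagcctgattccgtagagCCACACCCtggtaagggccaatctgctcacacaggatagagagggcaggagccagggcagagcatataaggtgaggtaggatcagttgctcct

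A GATA motif stood at -80 in Klf1, at -54 in Epor and at -210 in Hbb-bs, counted from the start to the first base of the match, and there was no match in the Hbb-bt and Tfrc sequences. Of all 32817 promoters of this length, 26.6% held such a match. The KLF1 motif stood at -107 in Hbb-bt and at -93 in Hbb-bs, at 4 partly overlapping positions in Epor and at 3 in Tfrc, with none in Klf1; 45.9% of all promoters held it. The adult globin promoters were 69.3% identical over their alignment of 257 columns, and their longest shared run was 14 bases. The Tfrc sequence held 25 CpG dinucleotides and a GC content of 64.8%, the Epor sequence 6 and 58.8%, the Klf1 sequence 3 and 49.2%, the Hbb-bs sequence 2 and 50.8% and the Hbb-bt sequence 0 and 47.2%, beside a median of 6 and 52.4% over all promoters. These matches describe letters, not binding.

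Peaks lay over the 5 promoters in unlike patterns. The Hbb-bt promoter was overlapped by a peak in 16 of the 18 lists: all 3 HPC and 6 of 7 HSC lists for H3K4me1, and 3 of 4 HPC and 4 of 4 HSC lists for H3K27ac. The Hbb-bs promoter was overlapped in 3 lists, all of HSCs: the untreated knockout H3K4me1 list and both wild-type 5FU lists. The Tfrc promoter was overlapped in 8 lists, which were all 4 HPC and all 4 HSC lists for H3K27ac, and in no H3K4me1 list. The Epor promoter was overlapped in 5 lists, all of them HSC H3K4me1 lists, and the Klf1 promoter only in the wild-type 5FU H3K4me1 list. Over all 32817 promoters, the share with a peak was between 4.60% and 15.9% in the H3K4me1 lists and between 30.0% and 34.9% in the H3K27ac lists.

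**Figure D1:**
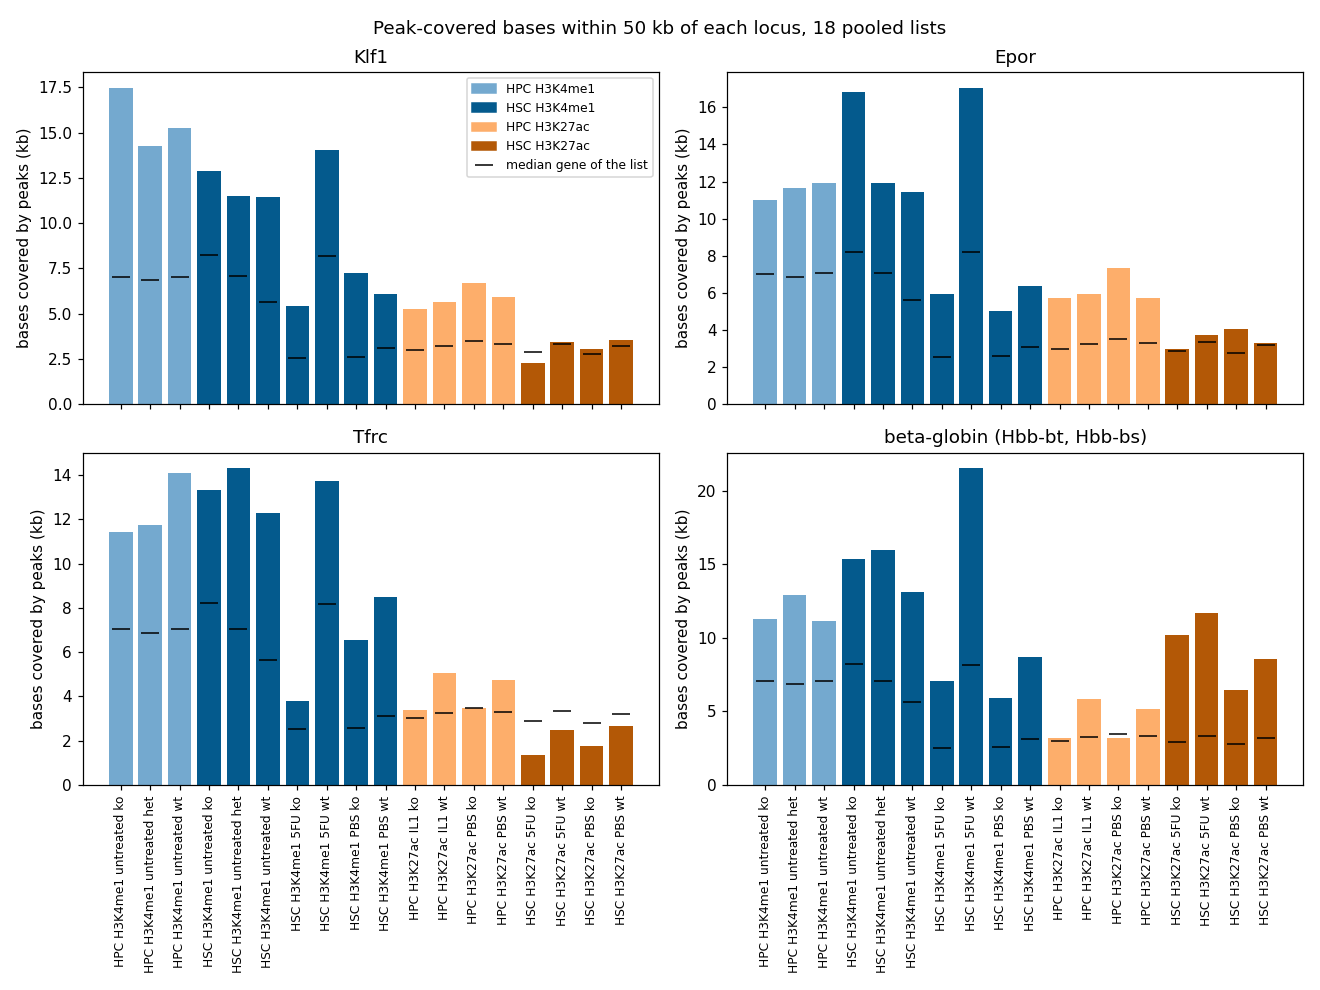
Bases covered by peaks (kb, linear axis from 0) within 50 kb of each locus in the 18 pooled lists, 1 bar per list coloured by cell type and mark; black ticks give the median gene of the same list. At the beta-globin locus the HPC H3K27ac bars (3172 to 5826 bases) stand below the HSC H3K27ac bars (6487 to 11725 bases), and at the other loci the HPC bars stand above the HSC bars for that mark.

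At Klf1, the transcription factor gene on chromosome 8 (84901982 to 84905291), H3K4me1 covered 17476, 14267 and 15273 bases in knockout, heterozygous and wild-type HPCs, against 12883, 11471 and 11456 bases in the matching HSCs. All 3 HPC lists thus had more covered bases than any of these HSC lists. At 16 weeks, H3K4me1 covered 5440 bases in knockout and 14024 bases in wild-type HSCs after 5FU, against 7222 and 6093 bases after PBS. H3K27ac covered 5282 and 5656 bases in knockout and wild-type HPCs after IL-1, against 6718 and 5918 bases after PBS. In HSCs H3K27ac covered 2264 and 3422 bases in knockout and wild-type cells after 5FU, against 3053 and 3556 bases after PBS. The HPC and HSC ranges did not overlap for H3K27ac, although those HPCs and HSCs also differed in age and in the course of PBS. The H3K27ac ranges of Epor and Tfrc did not overlap either. Among all genes, 11.9% in knockout and 14.6% in wild-type cells had a higher HPC over HSC ratio than Klf1 for this mark after PBS. How many genes separated the cell types in this way was not counted for either mark.

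Of the 25 regions at Klf1, 2 had a peak in all 18 lists, and both lay on other genes: the promoter of Farsa, 43.0 to 45.3 kb upstream, and the promoter of Dnase2a, 6.18 to 8.79 kb downstream of the Klf1 start. Dnase2a encodes the DNase with which macrophages digest the nuclei that red cell precursors expel. The region over the start and first part of Klf1 itself (chr8:84901704-84904029) had a peak in 16 lists, the exceptions being the knockout 5FU and the wild-type PBS H3K4me1 lists of HSCs. Its H3K27ac summits lay 1.35 to 1.39 kb inside the gene in the 4 HPC lists and 0.54 to 0.89 kb inside it in the 4 HSC lists, and the authors' fold enrichment of those peaks was 4.94 to 6.13 in HPCs and 3.25 to 4.90 in HSCs. These were middling peaks, between the top 25.5% and the top 62.4% of their own lists by −log10 p. A region 19.1 to 21.0 kb upstream, inside Syce2, had H3K4me1 in all 10 lists and H3K27ac in 1 HSC list only. Of the 25 regions with H3K4me1 at the locus, 8 had it in at least 1 HPC list and in no HSC list, and 3 the reverse, where 17.8% and 33.7% of the 155028 regions with H3K4me1 in the series did. All 8 lay in the neighbouring genes 1700122E12Rik and Mast1, at least 11.2 kb from the Klf1 start. Some were weak peaks of 1 list, down to the top 97.3%. The region over Klf1 itself had H3K4me1 in 3 HPC and 5 HSC lists.

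At Epor, the receptor gene on chromosome 9 (21958897 to 21963576), H3K4me1 covered 10996, 11667 and 11946 bases in knockout, heterozygous and wild-type HPCs, against 16834, 11919 and 11443 bases in HSCs. The knockout HSC list stood above the other 5, which lay between 10996 and 11946 bases. After 5FU, H3K4me1 covered 5934 bases in knockout and 17059 bases in wild-type HSCs, against 5025 and 6398 bases after PBS. H3K27ac covered 5716 and 5950 bases in knockout and wild-type HPCs after IL-1, against 7326 and 5708 bases after PBS. In HSCs it covered 2957 and 3733 bases in knockout and wild-type cells after 5FU, against 4035 and 3299 bases after PBS.

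Of the 15 regions with H3K4me1 at the Epor locus, 2 had it in at least 1 HPC list and in no HSC list. The reverse held for 3, among them the region over the Epor start. In the series these shares were 17.8% and 33.7% of the regions with H3K4me1, from 7 HSC and 3 HPC lists. Within the Epor gene, the lists with an H3K4me1 peak differed between neighbouring regions. The region over the Epor start (chr9:21962830-21964315) had an H3K4me1 peak in 0 of 3 HPC lists and in 6 of 7 HSC lists. The next region, 0.81 to 2.58 kb inside the gene, had H3K4me1 in 3 of 3 HPC and 4 of 7 HSC lists, with a fold enrichment of 2.77 to 4.67 in HPCs and 2.74 to 3.05 in HSCs. No H3K27ac peak of any list lay in either region, so Epor itself carried H3K4me1 without H3K27ac in these lists. The H3K27ac nearest to it was at the promoter of the neighbour Swsap1, 6.82 to 8.36 kb from the Epor start, with a fold enrichment of 14.2 to 18.8 in the 4 HPC lists and 6.37 to 8.55 in the 4 HSC lists. The 3 regions present in all 18 lists also lay on promoters of neighbours: Rab3d, Ccdc159 with Tmem205, and Ccdc151 with Prkcsh. The last of these was merged over 6048 bases, and its marks peaked apart. Its H3K27ac summits lay 39.5 to 39.7 kb upstream and its H3K4me1 summits 40.2 to 43.9 kb upstream. A region 23.9 to 26.8 kb upstream, at Rgl3, carried H3K4me1 in all 10 lists and no H3K27ac.

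**Figure D2:**
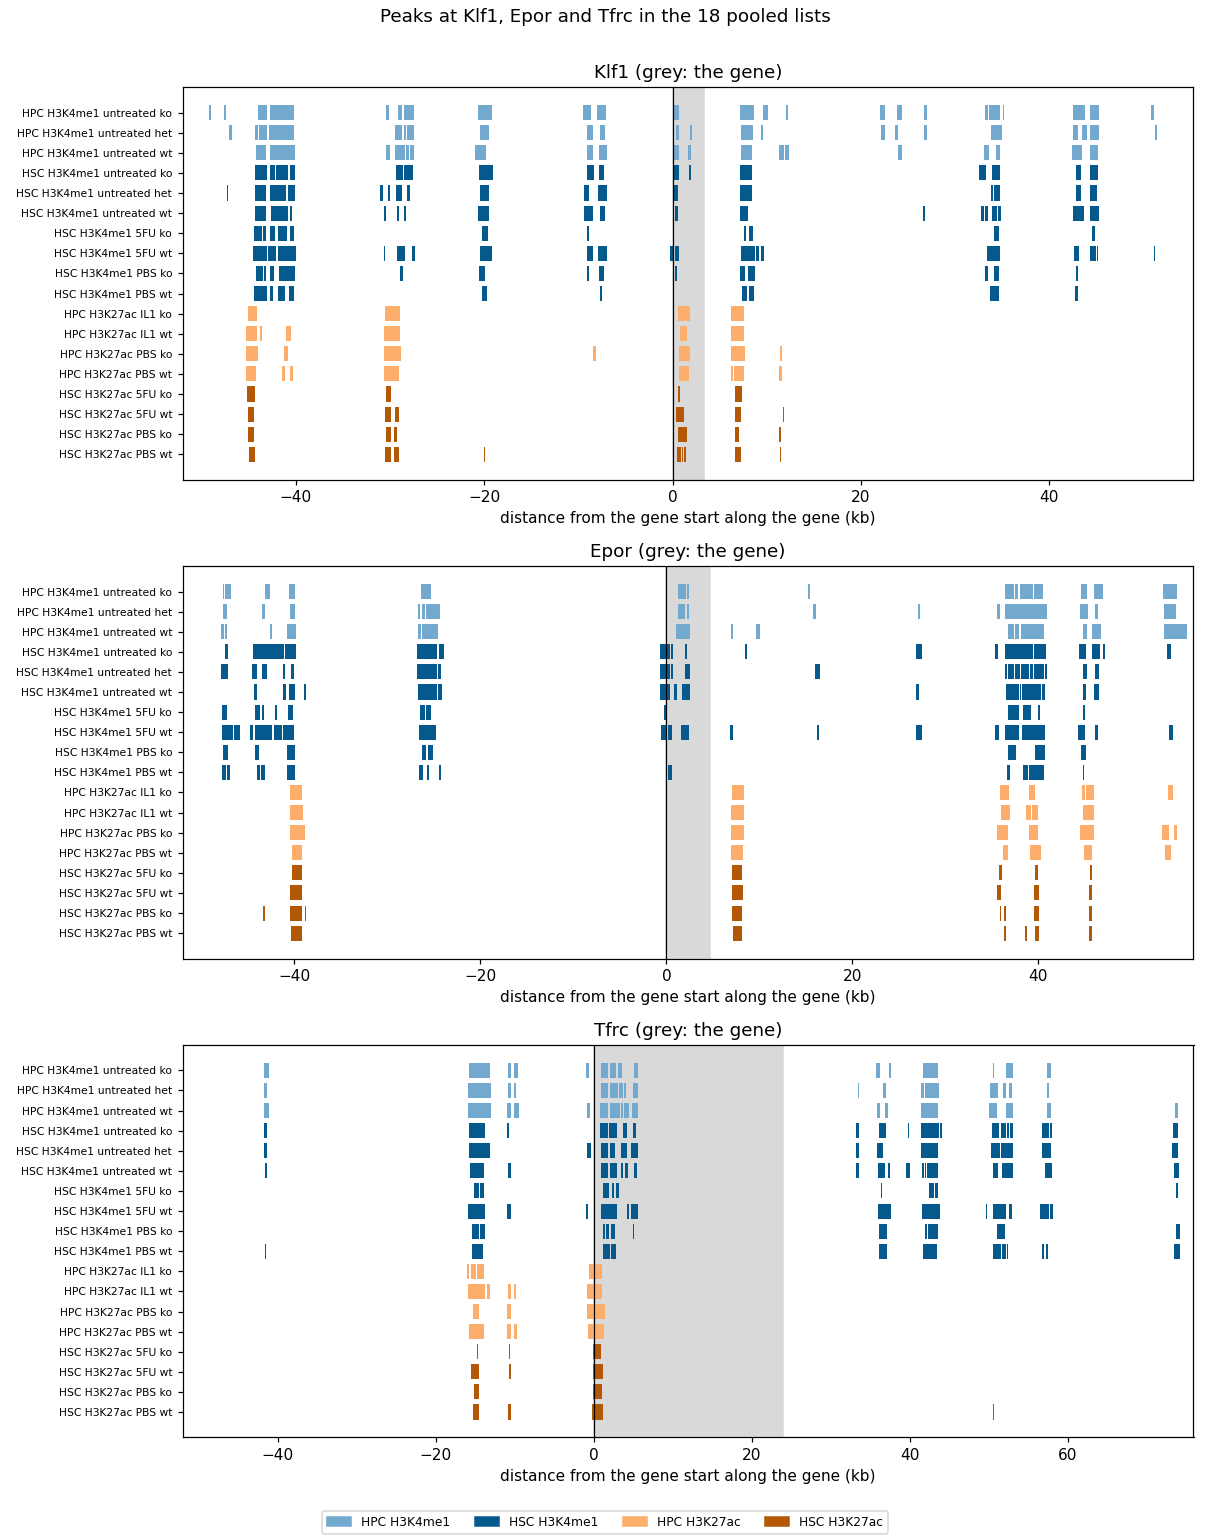
Peaks (coloured blocks) in each of the 18 pooled lists by distance in kb from the start of Klf1, Epor and Tfrc, positive along the gene, with the gene in grey. Blocks over the Epor start appear only in HSC H3K4me1 lists, and the Tfrc map shows H3K27ac blocks at the start in all 8 H3K27ac lists with H3K4me1 blocks farther inside the gene.

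At Tfrc, the transferrin receptor gene on chromosome 16 (32608896 to 32632794), H3K4me1 covered 11420, 11768 and 14100 bases in knockout, heterozygous and wild-type HPCs, against 13341, 14306 and 12300 bases in HSCs. The 2 cell types overlapped. After 5FU it covered 3800 bases in knockout and 13727 bases in wild-type HSCs, against 6558 and 8475 bases after PBS. H3K27ac covered 3369 and 5061 bases in knockout and wild-type HPCs after IL-1, against 3472 and 4741 bases after PBS. In HSCs it covered 1374 and 2497 bases in knockout and wild-type cells after 5FU, against 1754 and 2662 bases after PBS. For H3K27ac, the knockout list was below its wild-type list in all 4 pairs. Part of this was shared by other genes. The median gene stood at -0.16 and -0.15 in HSCs after 5FU and PBS, and at -0.10 and 0.06 in HPCs after IL-1 and PBS (log2, knockout over wild type). Relative to that gene, Tfrc stood at -0.40, -0.26, -0.38 and -0.42 in the same order, and was not called in any pair.

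Of the 14 regions at Tfrc, 2 had a peak in all 18 lists. One held the start and the first 4.49 kb of the gene (chr16:32607890-32613386), where H3K27ac summits stood 0.20 to 0.30 kb inside the gene in HPCs and 0.35 to 0.47 kb inside it in HSCs, while H3K4me1 summits stood 1.46 to 2.59 kb inside it in HPCs and 1.19 to 2.85 kb inside it in HSCs. The H3K27ac peaks there were in the top 5.21% to 12.4% of their lists. The other was a distal region 13.0 to 16.0 kb upstream (chr16:32592889-32595930), which lay on no annotated gene. Its H3K4me1 peak was in the top 1.23% to 2.96% of the 3 HPC lists and in the top 1.02% to 63.0% of the 7 HSC lists, with a fold enrichment of 6.32 in wild-type HPCs and 5.36 in untreated wild-type HSCs. The HSC extremes were the untreated wild-type list and the knockout PBS list. Its H3K27ac was weaker by rank, in the top 25.3% to 44.2% of the HPC lists and the top 41.8% to 70.7% of the HSC lists. A smaller region 9.47 to 10.1 kb upstream had H3K4me1 in all 3 HPC lists and H3K27ac in 2 HPC lists, and no peak in any HSC list. It was the only 1 of 14 regions with H3K4me1 in HPC lists alone, and 2 were in HSC lists alone. The series shares were 17.8% and 33.7%. For H3K27ac, 1 of 5 regions was in HPC lists alone and 1 in HSC lists alone, beside series shares of 12.9% and 41.6%. The 8 regions farther along than the gene lay in or beside Tnk2, a kinase gene, and carried H3K4me1, with H3K27ac in 1 HSC list at 1 of them.

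At the beta-globin locus (Hbb-bt at 103812524 to 103813923 and Hbb-bs at 103826523 to 103827928 on chromosome 7), H3K4me1 covered 11283, 12953 and 11175 bases in knockout, heterozygous and wild-type HPCs, against 15397, 16012 and 13101 bases in HSCs. Each HPC list was below every one of these HSC lists. After 5FU it covered 7050 bases in knockout and 21534 bases in wild-type HSCs, against 5895 and 8713 bases after PBS. H3K27ac covered 3208 and 5826 bases in knockout and wild-type HPCs after IL-1, against 3172 and 5187 bases after PBS. In HSCs it covered 10200 and 11725 bases in knockout and wild-type cells after 5FU, against 6487 and 8578 bases after PBS. Every HPC H3K27ac list was below every HSC H3K27ac list, with 4 to 10 peaks in HPCs against 13 to 22 in HSCs. The whole lists also held fewer peaks in HPCs, 37002 to 41314 against 51112 to 67143 for this mark. These HPCs were 8 to 10 weeks old and the HSCs 16 weeks old, and their treatments differed, which cannot be told apart from cell type. How many genes separated the cell types in this way was not counted for either mark. Among all genes of the same list, the locus had as many covered bases as, or more than, 47.7% to 66.2% of them in the HPC H3K27ac lists and 78.1% to 90.0% in the HSC H3K27ac lists.

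The beta-globin peaks fell into blocks. One region overlapped the 3′ end of Hbb-bt and ran downstream of it (chr7:103806419-103812813). It was the only one of 25 regions with a peak in all 18 lists, and its H3K4me1 was in the top 2.08% to 5.94% of the 3 HPC lists and in the top 1.57% to 14.9% of the 7 HSC lists. The region over the Hbb-bt start (chr7:103813667-103815372) had H3K27ac with a fold enrichment of 3.60 to 4.39 in 3 of 4 HPC lists and 5.38 to 5.87 in all 4 HSC lists. Between Hbb-bs and the end of Hbb-y, the stretch that also holds the embryonic genes Hbb-bh1 and Hbb-y, no HPC list had a peak of either mark, and the HSC lists had at most 1815 bases of H3K4me1 and 315 bases of H3K27ac. Beyond Hbb-y, H3K4me1 covered 4099 to 4877 bases in the 3 HPC lists and 2038 to 8499 bases in the 7 HSC lists. In the same stretch H3K27ac covered 235 and 587 bases in knockout and wild-type HPCs after IL-1 and 0 in both after PBS, against 3772, 3971, 1177 and 2400 bases in HSCs (knockout and wild type after 5FU, then knockout and wild type after PBS). These blocks were drawn after the peaks had been seen, and this upstream side is where the locus control region of the beta-globin genes is known to lie.

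The highest-ranked H3K4me1 of that upstream stretch lay in the region chr7:103858668-103862619, 30.7 to 34.7 kb upstream of Hbb-bs. Its H3K4me1 was in the top 0.87% to 8.83% of the HPC lists and the top 1.44% to 19.8% of the HSC lists, while its H3K27ac, in 2 of 4 HPC and 4 of 4 HSC lists, was in the top 77.2% to 86.3% and the top 28.1% to 65.2%. Of the 12 regions with H3K27ac over the whole locus, 0 had it in at least 1 HPC list and in no HSC list, and 7 the reverse, where 12.9% and 41.6% of the 59536 regions with H3K27ac in the series did. Of the 22 regions with H3K4me1, 0 had it in at least 1 HPC list and in no HSC list, and 12 the reverse, beside the series shares of 17.8% and 33.7%. There were 7 HSC and 3 HPC lists for H3K4me1, and 6 of the 25 regions were found only in the wild-type 5FU H3K4me1 list, so the H3K4me1 counts are weighted towards HSCs.

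**Figure D3:**
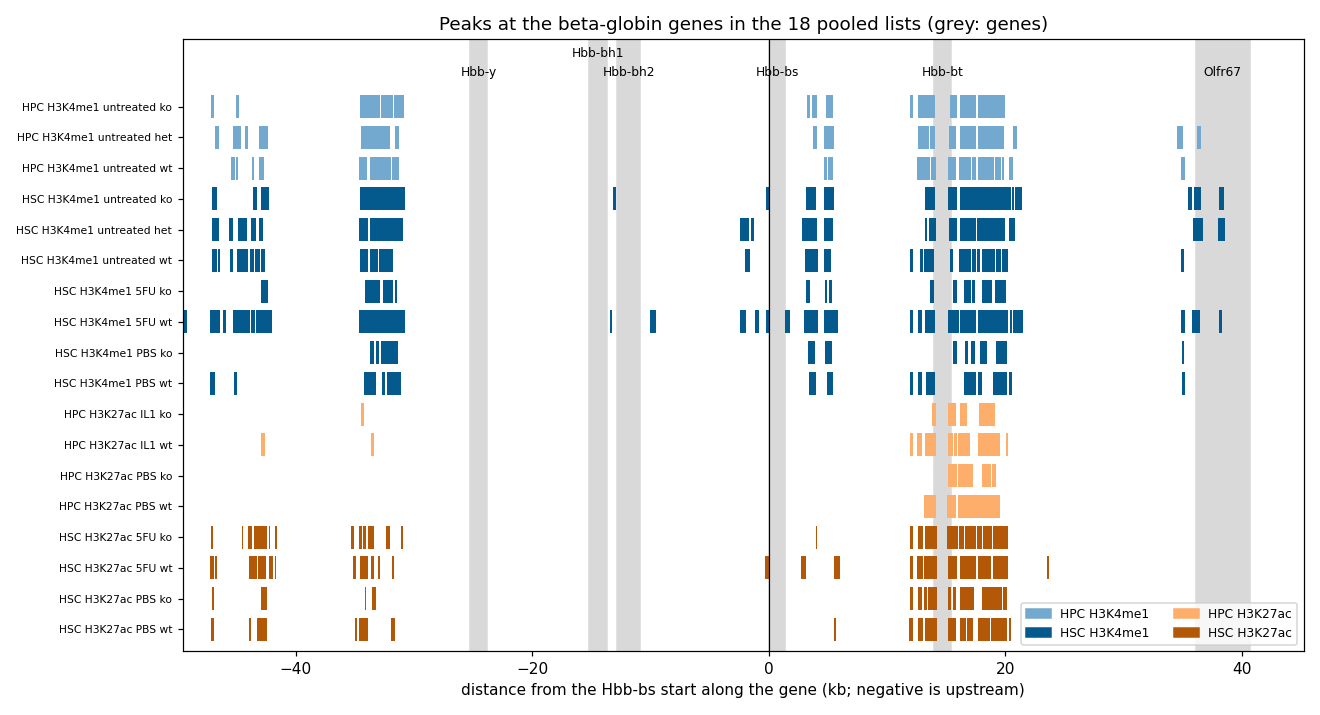
Peaks in each of the 18 pooled lists by distance in kb from the Hbb-bs start, negative upstream, with genes in grey. H3K4me1 blocks upstream of Hbb-y (left) appear in HPC and HSC lists, while H3K27ac blocks there cover 0 to 587 bases in the 4 HPC lists and 1177 to 3971 bases in the 4 HSC lists.

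Compared with the median gene, none of the 4 loci was called in HPCs over HSCs by H3K4me1 in any genotype, where 8.92% of genes in knockout, 9.16% in heterozygous and 9.84% in wild-type cells were called higher and 12.6%, 10.8% and 9.15% lower. Klf1 lay above the median gene in all 3 genotypes, with relative log2 ratios of 0.55 in knockout, 0.32 in heterozygous and 0.13 in wild-type cells. The beta-globin locus lay below it in all 3, at -0.28, -0.25 and -0.46. Tfrc was at -0.07, -0.23 and -0.07, and Epor at -0.43, 0.00 and -0.20. By H3K27ac after PBS, the beta-globin locus was called lower in HPCs than in HSCs, at -1.18 in knockout and -0.76 in wild-type cells, where 11.4% and 12.8% of genes were called lower. Klf1 was called higher in knockout cells at 0.59, where 12.2% of genes were, and stood at 0.47 in wild-type cells. Across 7 other settings, the Klf1 call was kept in 2, the beta-globin call in knockout cells in 7 and that in wild-type cells in 5. Epor stood at 0.39 and 0.51 and Tfrc at 0.36 and 0.51 in knockout and wild-type cells, below the 1.5-fold line. In that comparison HPCs were 8 to 10 weeks old and HSCs 16 weeks old, which cannot be told apart from cell type.

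Between genotypes, 2 of 40 locus values were called, both at the beta-globin locus and both for H3K27ac in HPCs. Knockout HPCs stood at -0.60 after IL-1 and at -0.62 after PBS relative to wild-type HPCs, where 3.34% and 3.39% of genes were called lower. Each call was kept in 4 of 7 other settings, and with 5000 bases added in place of 1000 neither was called. After PBS, the number of peaks ran the other way, with 5 peaks in knockout and 4 in wild-type HPCs, and counted by peaks the relative log2 ratio was 0.26. After IL-1 the locus held 5 peaks in knockout and 10 in wild-type HPCs. The shares of genes called higher in these comparisons were 0.764% and 1.34%. In HSCs the same locus was not called for H3K27ac, at -0.03 after 5FU and -0.20 after PBS, where 5.08% and 4.7% of genes were called lower and 0.655% and 0.768% higher, and whether HPCs and HSCs differed in this was not tested. No locus was called between genotypes by H3K4me1. In untreated knockout cells 2.04% of genes were called higher and 2.48% lower in HPCs, and 4.86% and 1.01% in HSCs. In untreated heterozygous cells 1.5% were called higher and 1.8% lower in HPCs, and 2.92% and 1.02% in HSCs. In knockout HSCs at 16 weeks 3.81% were called higher and 10.4% lower after 5FU, and 3.84% and 5.48% after PBS. Tfrc was below the median gene in all 10 genotype comparisons, from -0.42 to -0.04, and was called in none of them, but in 5 of the 10 the sign was not kept under at least 1 other setting, with values up to 0.28. Some of these 10 share a wild-type list, so they do not count as 10 separate comparisons. Klf1 ranged from -0.28 to 0.39 and Epor from -0.18 to 0.38, with values on both sides of the median gene.

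After treatment, 1 of 24 locus values was called: Tfrc in knockout HSCs by H3K4me1, at -0.66 after 5FU relative to PBS, where 5.11% of genes were called lower and 3.26% higher. The call was kept in 2 of 7 other settings, and with windows of 10 kb the value was 0.072. In wild-type HSCs the H3K4me1 value of Tfrc was -0.38, where 2.35% of genes were called lower and 7.46% higher. The beta-globin locus lay above the median gene in all 6 treatment comparisons, from 0.16 to 0.53, and was called in none. Trying other settings brought 1 of the 6 to 0. For H3K27ac, other settings also gave values up to 0.70 in knockout HSCs after 5FU and up to 1.14 in wild-type HPCs after IL-1. Both of these maxima passed 1.5-fold, and in each comparison the locus stayed uncalled in 6 of 7 settings. The largest reported value of the locus was for H3K27ac in knockout HSCs after 5FU, with 22 peaks against 13 after PBS. In wild-type HSCs there were 22 against 16 peaks and a value of 0.35. After 5FU, 1.33% of genes were called higher and 1.03% lower by H3K27ac in knockout HSCs, and 1.19% and 0.863% in wild-type HSCs. After IL-1, the 4 loci stood between -0.14 and 0.18 in knockout HPCs and between -0.04 and 0.16 in wild-type HPCs, where 1.09% and 1.35% of genes were called higher and 2.06% and 1.91% lower. No locus was called in the comparisons with the wild-type 5FU H3K4me1 list. Leaving them out therefore could not change the 2 genotype and 1 treatment values called.

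**Figure D4:**
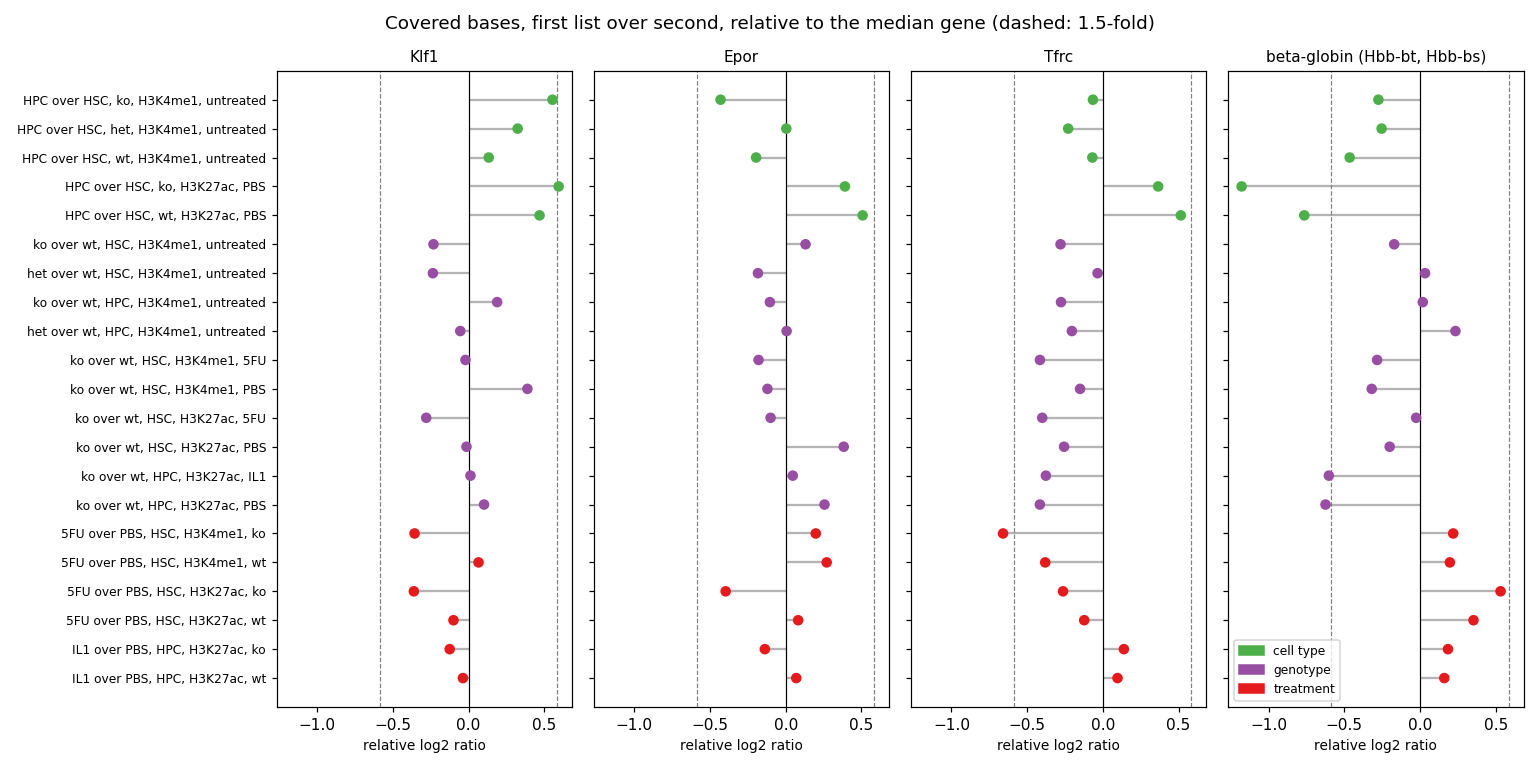
Relative log2 ratio of covered bases (x axis, first list over second, 0 is the median gene) for the 4 loci in 21 comparisons, coloured by kind of comparison; dashed lines mark 1.5-fold. The beta-globin points of HPC over HSC for H3K27ac stand at -1.18 and -0.76, and all 10 genotype points of Tfrc lie left of 0.

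The wider red cell programme was described with 6 lists: regulators, globins, erythropoietin signalling, iron uptake and storage, haem synthesis and red cell membrane. They held 64 genes besides the 5, of which 63 matched the annotation. By H3K4me1 in wild-type HPCs over HSCs, 4 of the 61 with enough coverage were called higher and 5 lower, with a median of -0.08, where 9.84% of all genes were called higher and 9.15% lower. Those called higher included Slc25a38, the glycine carrier of haem synthesis, at 0.95 (10911 bases in HPCs, 4158 bases in HSCs), Hfe, a regulator of iron uptake, at 0.85 and Kel, a red cell surface protein, at 0.75. Those called lower included Add2 at -1.18 and Epb41 at -0.65, which encode proteins of the red cell membrane skeleton, and Tal1, a regulator shared with stem cells, at -0.72 (23413 bases in HPCs, 32714 bases in HSCs).

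Of the 6 lists, the membrane genes had 2 called higher and 4 lower of 14 measured, the regulators 0 and 1 of 13, iron uptake and storage 1 and 0 of 10, haem synthesis 1 and 0 of 10, and neither the 9 genes of erythropoietin signalling nor the 5 globins had a called gene.

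By H3K27ac after PBS, 13 of 58 of these genes were called higher in wild-type HPCs than HSCs and 7 lower, where 10.2% and 12.8% of all genes were. In knockout cells, 10 of 57 were called higher and 7 lower, where 12.2% and 11.4% were. In wild-type cells the regulators had 4 called higher and 1 lower of 13 measured, erythropoietin signalling 3 and 0 of 9, the globins 1 and 2 of 5, iron uptake and storage 1 and 0 of 8, haem synthesis 1 and 0 of 10 and the membrane genes 3 and 4 of 13. Gypc, which encodes a glycophorin of the red cell surface, had 6542 covered bases in HPCs against 1791 bases in HSCs, and Sh2b3, an inhibitor of erythropoietin signalling, stood at 1.04. Ank1 (ankyrin) stood at -2.27 and Rhag, a membrane channel protein, at -1.64. By H3K4me1 in untreated wild-type cells, Gypc ran the other way and was called lower in HPCs, at -0.61 (23491 bases in HPCs, 30473 bases in HSCs). For that mark Sh2b3 stood at 0.01, Ank1 at -0.62 and Rhag at -0.49. The embryonic globins Hbb-bh1 and Hbb-y share peaks with the members and are no separate result.

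Between genotypes, by H3K4me1 in knockout HSCs, 5 of 61 were called lower and 2 higher after 5FU, where 10.4% and 3.81% of all genes were, and 5 of 58 lower and 2 higher after PBS, where 5.48% and 3.84% were. Both genes called higher after PBS were globins, Hba-x and Hba-a2, each at 0.60. They may share peaks, so they do not count as 2 separate results. Without globins, 0 of 53 were called higher in that comparison. In the 4 untreated H3K4me1 comparisons at most 1 was called in a direction. By H3K27ac in knockout HPCs, 4 of 59 were called lower after IL-1 and 4 of 55 after PBS, where 3.34% and 3.39% of all genes were, and none higher. In each case 2 of the 4 were globins, and without globins 2 of 54 and 2 of 50 were called lower. The 4 included Bcl11a, which silences embryonic globin genes, at -0.68 after IL-1 and -0.64 after PBS, Kit, the stem cell factor receptor, at -0.68 after IL-1, and Zfpm1, the partner of GATA1, at -0.84 after PBS. Hbb-bh1, at -0.60 and -0.62, shares the beta-globin peaks. By H3K27ac in knockout HSCs, 4 of 57 were called lower after 5FU and 1 of 56 after PBS, where 5.08% and 4.7% of all genes were. Gfi1b, a repressor needed for erythroid maturation, stood at -0.82 after 5FU and at -0.90 after PBS. After 5FU, 3 of 61 list genes were called higher by H3K4me1 in wild-type HSCs, where 7.46% of all genes were, and 1 of 54 lower in knockout HSCs, where 5.11% were. By H3K27ac in wild-type cells, 2 of 58 were called higher in HSCs after 5FU, where 1.19% of all genes were, among them Hba-a1, an alpha-globin gene, at 0.59. In HPCs after IL-1, 1 of 57 was called higher, where 1.35% were, and it was Alas1, an enzyme of haem synthesis, at 0.63.

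The genes whose covered bases over the 18 lists were most like those of a locus, at least 200 kb away, were named by Pearson's r of log2 covered bases, after subtracting the median gene of each list. The value is a description, since lists of the same mark and cell type share much of their pattern. For Klf1 they were Tmem104, Crispld2 and Zdhhc7 (each 0.96), for Epor Mdm1 and Nsd1 (both 0.93), then Actl6b (0.91), for Tfrc Defb48, Aagab (both 0.96) and Dexi (0.95), and for the beta-globin locus Gm36375 (0.93), Cyyr1 and Cubn (both 0.91).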

How the data were processed

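Reads were aligned with Novoalign and peaks called with MACS2 on mm10 (GRCm38), per the submitters' processing notes; the sources used here give no versions, no peak thresholds and no rule for reads matching several near-identical globin copies. The authors deposited 1 narrowPeak list per group, pooled over its libraries, with each peak's position, fold enrichment (a ratio) and −log10 p. Rank within a list used the deposited −log10 p. Input libraries were not analysed here. From these lists, bases covered by peaks within 50 kb of each RefSeq gene (GRCm38.p6) were summed, and peaks overlapping by at least 1 base were merged into regions, with Python 3.11.15, pandas 2.3.3 and NumPy 2.4.6. With 1 list per group there is no test and no p-value. The steps were tested on simulated data. The members and lists were chosen with earlier results of these data known. List genes were named as the up to 3 largest past 1.5-fold in each direction of a comparison; Gfi1b and the treatment genes are given as examples of these, and some list genes that met the rule are not reported here. Alternatives changed the window, the added bases, the measure, the peak threshold and the list sizes.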

Additional observations from a re-analysis of the deposited data

Results flagged for a closer look

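Klf1 stood on opposite sides of the median gene in 2 comparisons of knockout with wild-type HSCs by H3K4me1. The relative log2 ratio was -0.23 without treatment at 8 weeks and 0.39 after PBS at 16 weeks. Neither value passed 1.5-fold, and the difference between them was not tested. Under 7 other settings the value after PBS ranged from -0.12 to 0.66. Its sign was kept in 6 of the 7, and it stayed within 1.5-fold in 6 of the 7. Age, vehicle and library set differ between these comparisons and cannot be told apart.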

How the results depend on the processing

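No paired analysis was possible because each group was deposited as 1 pooled list, and for the same reason no replicate could be left out. Of 84 locus values recomputed under 7 settings, 544 of the 588 recomputed values stood on the same side of the 1.5-fold line as the reported value, which does not mean that they were close to it. The call was not kept throughout for 26 of the 84, and the sign was not kept throughout for 44 of them. Of those 44, 2 were called values. Knockout over wild-type HPCs after PBS at the beta-globin locus (H3K27ac) was 0.26 by number of peaks, and 5FU over PBS in knockout HSCs at Tfrc (H3K4me1) was 0.072 with 10 kb windows; the cause was not tested. Counting peaks gave 1 locus value higher in HPCs than HSCs, 5 genotype values lower, and 1 treatment value higher and 4 lower. Trimming lists to equal covered bases gave 1 higher and 1 lower between cell types, and the H3K27ac lists after PBS gave 1 higher and 2 lower. Windows of 10 kb gave 1 genotype value higher, and windows of 100 kb gave 1 treatment value higher and 0 lower. With 5000 added bases, 0 genotype and 0 treatment values were lower, and with a −log10 p of at least 3, 0 treatment values were lower. Requiring 50% overlap with the widest peak left 3 regions in all lists instead of 8. The lower beta-globin value of knockout HPCs after IL-1 ranged from -0.87 to -0.34 and passed 1.5-fold in 4 of 7 settings. The sign of Tfrc between genotypes was not kept in every setting. Depth is unknown, so a missing peak does not show that a mark is absent.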
